A study of Drosophila melanogaster with 6 samples.

Results

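The table of expression values held 73 genes for proteins of the mitochondrial ribosome among its 16662 rows. Membership went by symbol alone: a row belonged when any of its gene symbols began with mRpL or mRpS followed by a digit. The set itself was chosen with earlier results of these data known. Of the 73 genes, 47 were named for the large subunit (mRpL) and 26 for the small subunit (mRpS). All 73 were among the 10986 rows that averaged 1 FPKM or more (fragments per length of transcript and per depth of the library), which were the rows tested.

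Mitochondria carry their own ribosomes, which translate the few proteins encoded in mitochondrial DNA, all of them core subunits of the respiratory chain and ATP synthase. In flies, as in other animals, every protein of these ribosomes is encoded in the nucleus, translated in the cytosol and imported. Some descend from proteins of the bacterial ribosome and keep their numbers, and most of those with higher numbers are found only in mitochondrial ribosomes.

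Whole larvae of Drosophila melanogaster at instar 3, raised at 25°C, were measured by RNA-seq of total RNA, with 2 libraries for each of 3 genotypes. HP1b16 and HP1b86 larvae were homozygous for deletions in HP1b, made by imprecise excision of a P element and taking away the start codon and much of the coding sequence. Both alleles had been backcrossed into the control strain yw, which carries the y and w mutations that all 3 genotypes share. Each mutant is 1 stock, so the allele and anything else fixed in its stock cannot be told apart, and no source says that the libraries of a genotype are separate collections of larvae, so p-values measure only the spread between these libraries.

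HP1b encodes a chromosomal protein of the HP1 family. It was at 2.55 and 3.13 FPKM in HP1b16, at 0.121 and 0.0403 FPKM in HP1b86 and at 22.8 and 24.2 FPKM in yw. Both mutants thus lay far below yw, and HP1b16 kept more of this RNA than HP1b86. The study reports an aberrant RNA from this gene in HP1b16. For that reason it limited its analysis of gene functions to genes misregulated in both mutants. Estimated from the step that 1 fragment makes in the values of low genes, depth was about 42300000 and 69200000 fragments in HP1b16, 22900000 and 33800000 in HP1b86, against 52100000 and 41600000 in yw. Most of these estimates lie outside the range of reads per sample that the methods of the study give. The measures are unlike, since that range counts reads and the estimates count fragments. Any scaling between libraries, which is not given, would also enter the estimates. The cause was not tested. At the estimated depths, members in rows of their own rested on 176 to 3893 fragments in a library, and counting alone gives an error of 7.54% at the lowest. These counts use full transcript lengths and a depth estimated on transcripts over 1500 nt. How well they hold for shorter transcripts was not tested.

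In yw larvae the members were expressed at similar, moderate levels. The median member had 17.8 and 15.3 FPKM in the yw libraries, against 10.5 and 9.85 FPKM for all rows tested. Of the 70 members in rows of their own, 60 lay between 10 and 30 FPKM, and the highest of them was 5.79 times the lowest.

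As a set, and on the deposited FPKM scale, the members were higher in both mutants than in yw. The median member had 17.6 and 24.7 FPKM in HP1b16 and 26.3 and 22.5 FPKM in HP1b86, against 17.8 and 15.3 FPKM in yw. The first HP1b16 library thus lay inside the range of the yw libraries, and the other 3 mutant libraries lay above it. Over all rows tested the medians were 9.86 and 10.1 FPKM in HP1b16, 9.65 and 12.3 FPKM in HP1b86 and 10.5 and 9.85 FPKM in yw.

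On the log2(FPKM + 1) scale, the median fold change of the members over yw was 0.33 in HP1b16, where the median of all rows tested was -0.10. It was 0.48 in HP1b86, where that of all rows was -0.0048, and 0.40 with the mutants averaged, each genotype weighing equally, where that of all rows was -0.08. The members therefore stood 0.43, 0.48 and 0.48 above the median row in these 3 comparisons, which share the yw libraries.

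The shift was common to nearly all members. The fold change was above 0 for 71 of 73 members in HP1b16 (40.8% of all rows tested), for 73 of 73 in HP1b86 (49.5% of all rows) and for 73 of 73 with the mutants averaged (42.7% of all rows). Against the median of all rows, 73 of 73 members were higher in each comparison, where by construction 50% of all rows are. The fold changes of the members with the mutants averaged had an interquartile range of 0.23, against 0.65 for all rows tested.

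How far the members lay above yw itself depended on how the libraries were scaled. When the FPKM of each library were divided by their sum (TPM), the median of all rows with the mutants averaged stood at -0.45 and that of the members at 0.01, with 39 of 73 members above 0 (22.5% of all rows). Under TPM the direction against yw turned in HP1b86, where the member median was -0.08 with 25 of 73 members above 0 and the median of all rows was -0.53. In HP1b16 the member median was 0.11 under TPM with 55 of 73 above 0, and the median of all rows was -0.32. Summed over the rows tested, FPKM came to 767621 and 777736 for HP1b16, 1131380 and 873138 for HP1b86 and 656742 and 653372 for yw. Relative to the median row, 73 of 73 members were higher with the mutants averaged on the deposited scale and under quantile scaling. The same count under TPM and median-ratio scaling was nearly fixed in advance, since these multiply a whole library by the same factor.

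**Figure D1:**
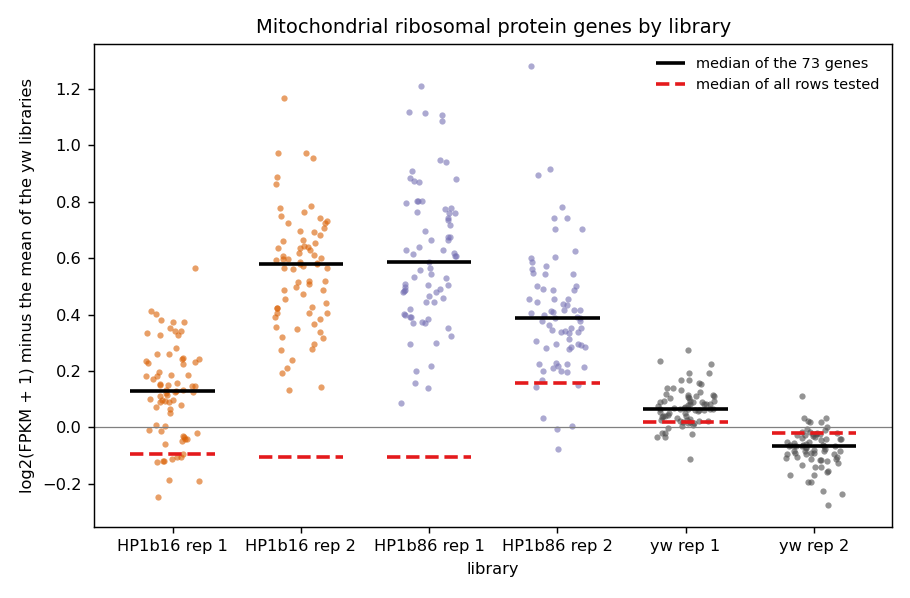
Each point is 1 of the 73 genes in 1 library, as log2(FPKM + 1) minus the mean of both yw libraries (y axis), for the HP1b16, HP1b86 and yw libraries (x axis). Black lines are medians of the 73 genes (0.13, 0.58, 0.59, 0.39, 0.07 and -0.07, left to right) and red dashed lines are medians of all 10986 rows tested. The first HP1b16 library lies closest to yw of the mutant libraries.

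The libraries of a genotype differed from each other in these genes. Against the yw mean, the median member was at 0.13 and 0.58 in HP1b16, 0.59 and 0.39 in HP1b86, against 0.07 and -0.07 in yw. By this measure all 4 mutant libraries lay above both yw libraries, the first HP1b16 library by the least. With the median of all rows taken off in each library, the same values were 0.22 and 0.68 in HP1b16, 0.69 and 0.23 in HP1b86, against 0.05 and -0.05 in yw.

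The distance between the HP1b16 libraries was as large as the distance of this mutant from yw. The second HP1b16 library was above the first in 73 of 73 members (57% of all rows tested), by a median of 0.43 with an interquartile range of 0.12. For all rows the same difference had a median of 0.04 and an interquartile range of 0.32. The members thus differed by similar amounts between the HP1b16 libraries. Their difference was smallest for mRpS5, at 0.13, and largest for mRpS33, at 0.80.

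The first HP1b86 library was above the second in 59 members (44.3% of all rows), and the first yw library above the second in 66 (57.4% of all rows). The medians of these differences were 0.20 and 0.13. Their interquartile ranges were 0.30 in HP1b86 and 0.16 in yw, against 0.75 and 0.33 for all rows. The median SD between the libraries of a genotype, over the members, was 0.31 in HP1b16, 0.15 in HP1b86 and 0.10 in yw, against 0.11, 0.25 and 0.12 over all rows tested. Of the mutant libraries, those with the highest estimated depth (the second of HP1b16) and the lowest (the first of HP1b86) had the highest member medians, and the part of depth in the shift was not tested.

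Counted library by library, 45 of 73 members had both HP1b16 libraries above both yw libraries (30.1% of all rows), and 68 had both HP1b86 libraries above both (31.7% of all rows). In 44 members all 4 mutant libraries lay above both yw libraries (24.4% of all rows). No member had every library of a mutant below both yw libraries, where 46% of all rows did in HP1b16, 26.1% in HP1b86 and 19.8% in both together. The first HP1b16 library set the count for both mutants together. It lay above both yw libraries in 45 members (33.4% of all rows), and the second HP1b16 library did in 73 (37.2% of all rows). The first HP1b86 library did in 70 members (39.9% of all rows) and the second in 69 (56.8% of all rows). Without the first HP1b16 library, 68 of the members had all remaining mutant libraries above yw (28% of all rows), and on the TPM scale with all libraries 5 did (12.7% of all rows).

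**Figure D2:**
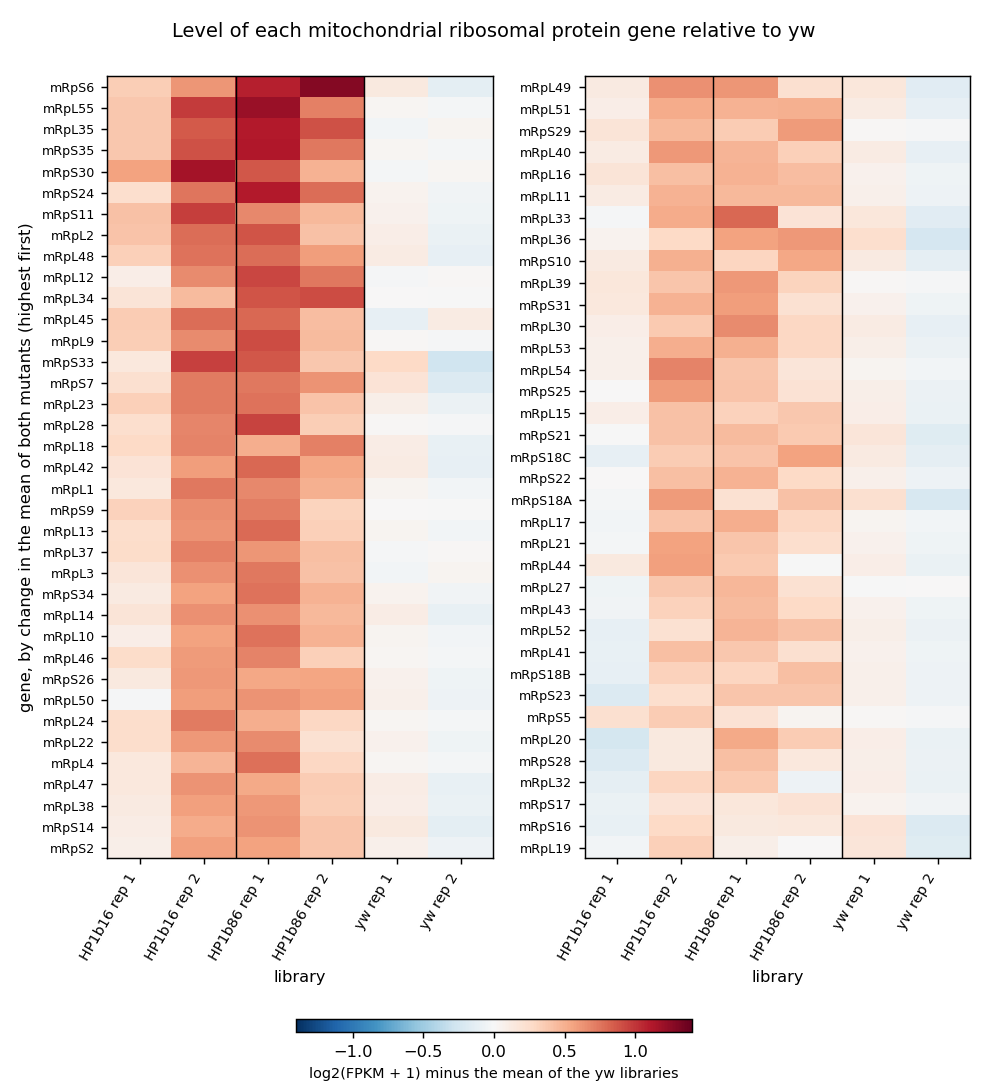
Each row is a gene and each column a library, ordered by the change with the mutants averaged from the top of the left panel (mRpS6, 0.83) to the foot of the right panel (mRpL19, 0.10). The colour is log2(FPKM + 1) minus the mean of the yw libraries, red above and blue below. The second HP1b16 library is red throughout, while the first turns pale or blue in the right panel.

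Few single members passed the test, which was limma on log2(FPKM + 1) with all 6 libraries and Benjamini-Hochberg adjustment over the 10986 rows, at 0.05. In HP1b16 none passed in limma (0.0182% of all rows). Under an unadjusted 0.05 were 6 of 73, all higher, against 23.7% of all rows in either direction and 14.9% as higher. With HP1b16 and yw fitted alone 2382 of all rows passed, and still no member did. In HP1b86, 2 passed and both were higher (4.03% of all rows passed, and 2.98% passed as higher). There 29 were under an unadjusted 0.05, all higher, against 30% of all rows in either direction and 17.4% as higher. With the mutants averaged none passed in limma (6.38% of all rows, with 4.68% higher), and the lowest adjusted p was 0.0512 for mRpS6. In that comparison 27 were under an unadjusted 0.05, all higher, against 31.1% of all rows in either direction and 18.4% as higher. Between 0.05 and 0.1 lay the adjusted p of 4 further members in HP1b86 and of 7 members with the mutants averaged, by limma. In HP1b86 the share of members that passed was 2.74%, near the 2.98% of all rows that passed as higher.

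The members that passed in HP1b86 were mRpS6 and mRpL34. The first is the counterpart of a bacterial protein of the platform of the small subunit, and the second of a small basic protein of the large subunit. mRpS6 had 15.8 and 19.3 FPKM in HP1b16 and 27.1 and 31.1 FPKM in HP1b86, against 13.6 and 11.01 FPKM in yw. The libraries of the 3 genotypes did not overlap for this gene, and both HP1b86 libraries lay above both HP1b16 libraries. Its log2 fold change over yw was 1.18 in HP1b86 (SE 0.18, adjusted p = 0.0481 by limma) and 0.48 in HP1b16 (SE 0.18, adjusted p = 0.201 by limma).

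mRpL34 had 14.9 and 18.1 FPKM in HP1b16 and 24.8 and 25.4 FPKM in HP1b86, against 13.1 and 12.9 FPKM in yw. Here too the 3 genotypes did not overlap, and the HP1b86 libraries were the highest. Its log2 fold change was 0.90 in HP1b86 (SE 0.13, adjusted p = 0.0480 by limma) and 0.31 in HP1b16 (SE 0.13, adjusted p = 0.245 by limma). mRpL34 had the shortest transcript of the members and overlaps another gene on the opposite strand, and counting by strand is not stated in the sources used here.

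Both calls stood just under the threshold and depended on how the table was treated. mRpS6 passed in HP1b86 under 5 of 14 alternatives and mRpL34 under 3, with adjusted p by limma from 0.0180 to 0.308 for mRpS6 and from 0.0180 to 0.314 for mRpL34. The log2 fold changes in HP1b86 also depended on scaling, and under TPM they were 0.62 for mRpS6 and 0.33 for mRpL34. Some of the 14 alternatives leave out a library, so that a genotype keeps only a single library. The number of all rows called changed widely between those fits. Whether a gene passed there therefore says little about that gene.

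The 5 highest members with the mutants averaged were mRpS6 (0.83), mRpL55 (0.81), mRpL35 (0.81), mRpS35 (0.78) and mRpS30 (0.77), all log2 fold changes. In each of them every mutant library lay above both yw libraries. mRpL55, a large subunit protein known only from mitochondria, had 27.8 and 42.7 FPKM in HP1b16 and 50.4 and 35.2 FPKM in HP1b86, against 21.6 and 20.9 FPKM in yw. The second HP1b16 and first HP1b86 libraries were the highest of the mutant libraries, and the adjusted p with the mutants averaged was 0.105 by limma.

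mRpL35, which has a bacterial counterpart in the large subunit, had 19.1 and 27.1 FPKM in HP1b16 and 32.3 and 27.7 FPKM in HP1b86, against 14.1 and 14.8 FPKM in yw. Its adjusted p was 0.0627 with the mutants averaged and 0.0665 in HP1b86, by limma. The yw libraries of this gene lay close together and below every mutant library.

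mRpS35, a mitochondrial small subunit protein, had 14.3 and 20.9 FPKM in HP1b16 and 24.6 and 18.8 FPKM in HP1b86, against 11.05 and 10.6 FPKM in yw. mRpS30, whose mammalian counterpart sits in the large subunit in spite of its name, had 18.6 and 28.8 FPKM in HP1b16 and 23.3 and 17.6 FPKM in HP1b86, against 12.1 and 12.5 FPKM in yw. mRpS30 had the highest fold change of the members in HP1b16, 0.86 (SE 0.26, adjusted p = 0.148 by limma), and was 1 of 8 members whose fold change was higher in HP1b16 than in HP1b86.

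With the mutants averaged, the 5 lowest members differed from yw by less than the spread between libraries. They were mRpL19 (0.10), mRpS16 (0.11), mRpS17 (0.11), mRpL32 (0.12) and mRpS28 (0.13), with adjusted p from 0.620 to 0.737 with the mutants averaged by limma. In bacteria the counterparts of mRpS16 and mRpS17 bind ribosomal RNA early in assembly, and that of mRpL19 sits at the interface of the subunits. mRpL32 is known in mouse as a substrate of the m-AAA protease of the inner membrane.

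mRpL19 had 16.7 and 21.9 FPKM in HP1b16 and 18.3 and 17.2 FPKM in HP1b86, against 19.4 and 15.2 FPKM in yw. Both HP1b86 libraries lay between the yw libraries. mRpS16 had 31.4 and 41.2 FPKM in HP1b16 and 37.3 and 37.5 FPKM in HP1b86, against 38.8 and 29.5 FPKM in yw. Again the HP1b86 libraries lay within the yw range, and 1 HP1b16 library lay above it.

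mRpS17 had 24.2 and 29.8 FPKM in HP1b16 and 29.04 and 29.99 FPKM in HP1b86, against 26.8 and 25.1 FPKM in yw. mRpL32 had 8.95 and 12.3 FPKM in HP1b16 and 13.0 and 9.28 FPKM in HP1b86, against 10.6 and 9.15 FPKM in yw. mRpS28 had 14.6 and 18.5 FPKM in HP1b16 and 22.8 and 18.7 FPKM in HP1b86, against 17.8 and 15.8 FPKM in yw. In these 3 genes the first HP1b16 library was the lowest of the 6 libraries. In mRpS17 and mRpS28 both HP1b86 libraries lay above both yw libraries. mRpS28 and mRpL20 were the members with a fold change below 0 in HP1b16, at -0.03 and -0.05.

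mRpL20, named here after its values were seen, is the counterpart of a bacterial protein needed for assembly of the large subunit. It had 14.1 and 18.7 FPKM in HP1b16 and 24.8 and 21.8 FPKM in HP1b86, against 18.1 and 15.8 FPKM in yw. Its HP1b16 libraries straddled the yw libraries, and its HP1b86 libraries lay above all others.

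**Figure D3:**
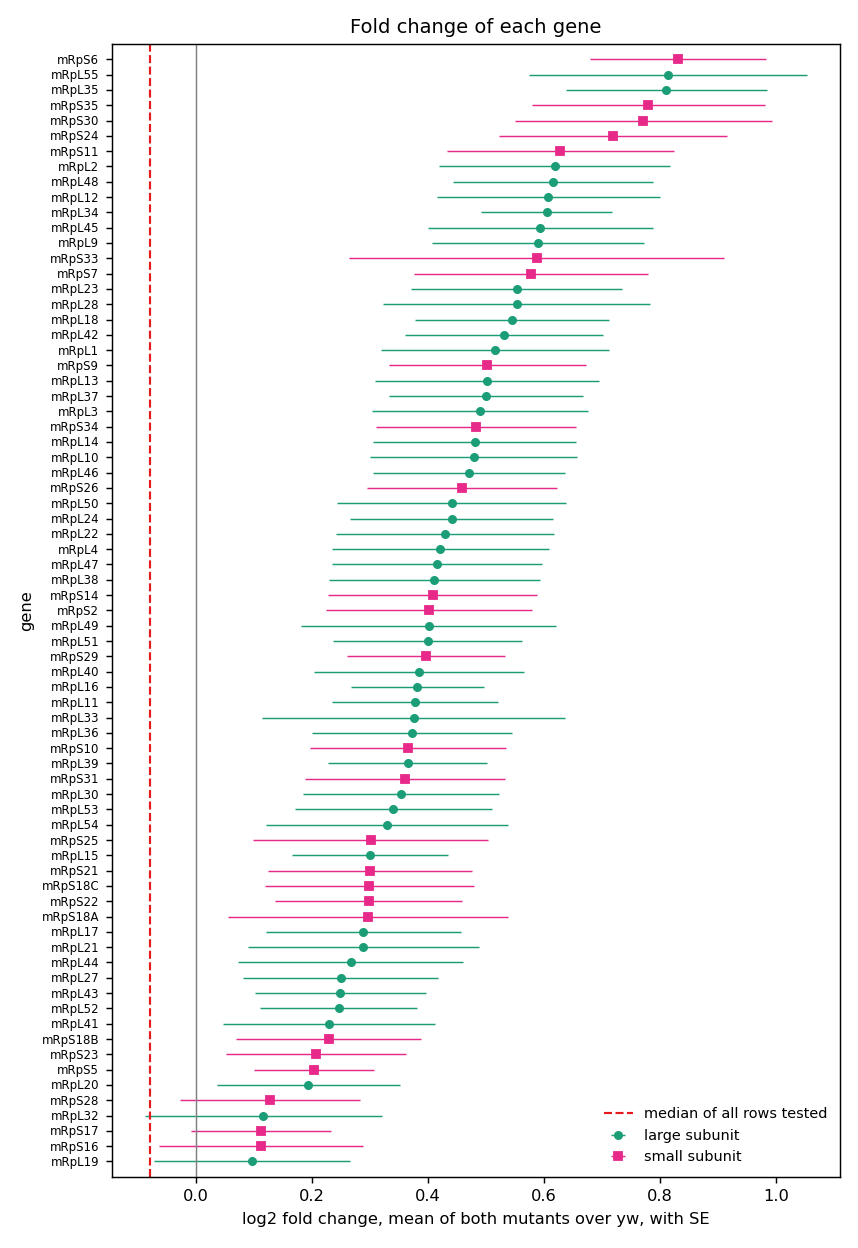
Log2 fold change of each gene with the mutants averaged over yw (x axis, on log2(FPKM + 1)), ranked down the page. Bars are 1 SE from the fit. Genes named for the large subunit are circles and those named for the small subunit are squares. All 73 points lie to the right of the median of all rows (-0.08) and, on this scale, of 0 (39 on the TPM scale), and both subunits are spread through the ranking.

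The 3 most abundant rows in yw were those of mRpL13, mRpL53 and mRpL33. The row of mRpL13 also holds CG10602, that of mRpL53 also CG33155, and that of mRpS14 also CG32533, genes that overlap them on the same strand, so their values cannot be given to the ribosomal protein alone. The mRpL13 row had 75.1 and 98.2 FPKM in HP1b16 and 110 and 80.0 FPKM in HP1b86, against 65.0 and 61.3 FPKM in yw, without overlap between mutants and yw. The mRpL53 row had 55.7 and 76.0 FPKM in HP1b16 and 75.5 and 65.4 FPKM in HP1b86, against 56.4 and 50.2 FPKM in yw. The mRpS14 row had 18.3 and 24.7 FPKM in HP1b16 and 26.8 and 22.5 FPKM in HP1b86, against 18.8 and 15.3 FPKM in yw. In both of these rows the first HP1b16 library lay within the yw range and the other mutant libraries lay above it.

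mRpL33, whose bacterial counterpart lies near the exit site for tRNA, was the most abundant member in a row of its own. It had 44.3 and 64.5 FPKM in HP1b16 and 78.6 and 51.3 FPKM in HP1b86, against 49.9 and 39.9 FPKM in yw. The spread within each mutant was large next to the difference from yw, with a log2 fold change of 0.38 (SE 0.26) with the mutants averaged and an adjusted p of 0.414 by limma.

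The 3 least abundant members were mRpS31, mRpL37 and mRpS2. mRpS31 and mRpL37 are proteins of mitochondrial ribosomes without a bacterial relative, and the counterpart of mRpS2 lies between the head and body of the bacterial small subunit. mRpS31 had 8.73 and 11.3 FPKM in HP1b16 and 12.1 and 9.18 FPKM in HP1b86, against 8.13 and 7.39 FPKM in yw. mRpL37 had 9.53 and 13.4 FPKM in HP1b16 and 12.5 and 10.7 FPKM in HP1b86, against 7.68 and 7.92 FPKM in yw. mRpS2 had 9.74 and 14.2 FPKM in HP1b16 and 14.0 and 12.3 FPKM in HP1b86, against 9.63 and 8.70 FPKM in yw. All mutant libraries lay above both yw libraries in these 3 genes, with log2 fold changes of 0.36, 0.50 and 0.40 with the mutants averaged. Across the 73 members, level in yw and fold change with the mutants averaged had a Spearman rho of -0.20, given as a description since the yw values enter both measures.

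**Figure D4:**
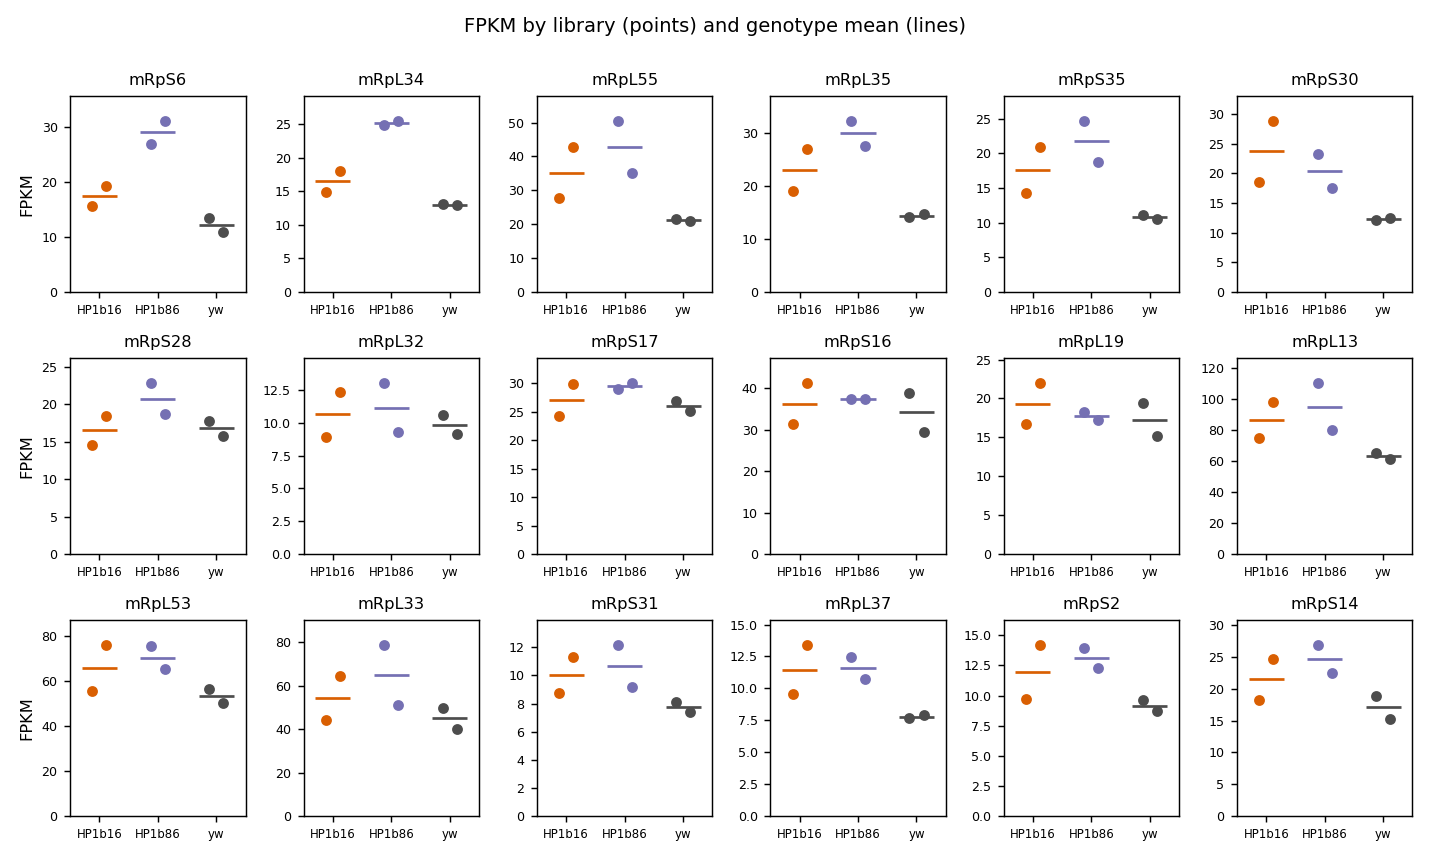
FPKM of 18 members by genotype, each with its own y axis starting at 0, points for libraries (the first on the left) and lines for the mean of the 2 libraries of a genotype. The upper row holds the members that passed in HP1b86 and those with the highest changes, where every mutant point lies above both yw points. HP1b16 overlaps yw in the lowest members, from mRpS28 to mRpL19, while both HP1b86 points lie above both yw points in mRpS28 and mRpS17.

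With subunits taken from the gene names, the shift did not concentrate in 1 subunit. By name mRpS30 and mRpS18A count as small, although their mammalian counterparts sit in the large subunit. With the mutants averaged the median log2 fold change was 0.42 over the 47 large subunit members and 0.38 over the 26 small subunit members, with every member above 0 on the deposited scale. All mutant libraries lay above both yw libraries in 30 large and 14 small subunit members. Among large subunit members, those with a number of the bacterial series had a median of 0.44 (28 genes) and those beyond it 0.40 (19 genes). Among small subunit members these medians were 0.33 (14 genes) and 0.43 (12 genes).

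Members on every large chromosome arm were included. Their medians with the mutants averaged were 0.43 on 2L (12 genes), 0.29 on 2R (12 genes), 0.44 on 3L (17 genes), 0.42 on 3R (21 genes) and 0.41 on the X (11 genes), which also carries HP1b. The arm with the lowest median, 2R, held 3 of the 5 lowest members, mRpS16, mRpS17 and mRpS28. No difference between subunits, series or arms was tested.

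The members have short transcripts, with a median length of 740 nt in the reference annotation against 1672 nt for the tested rows with a length. Over all rows with transcripts of up to 800 nt, the median against the yw mean was -0.21 and -0.17 in HP1b16, 0.0062 and 0.65 in HP1b86, against 0.12 and -0.12 in yw. For the 41 members of that length the same medians were 0.09 and 0.56 in HP1b16, 0.56 and 0.41 in HP1b86, against 0.08 and -0.08 in yw. Short members thus stood above short rows in both HP1b16 libraries and in the first HP1b86 library, and below them in the second HP1b86 library, where short rows as a whole were high. Overlap with another gene made little difference to the median with the mutants averaged, which was 0.40 for the 43 members that overlap one in the reference and 0.41 for the 30 that do not.

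Set against each other, the mutants gave no member past the threshold in limma (0.0091% of all rows passed), with 3 members under an unadjusted 0.05 (7.9% of all rows, 3.81% with HP1b16 higher). These 3 were mRpS6, mRpL34 and mRpL20, all lower in HP1b16, by log2 differences of -0.70, -0.59 and -0.49. The lowest adjusted p of a member was 0.562 by limma. The median member was at -0.16 in HP1b16 against HP1b86, where the median of all rows was -0.08, and 8 of 73 members were higher in HP1b16 (39.3% of all rows). The libraries of the mutants overlapped in most members, since only 1 had both HP1b16 libraries above both HP1b86 libraries (15.9% of all rows) and 12 had both below (18.5% of all rows).

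Other parts of the mitochondrial translation machinery were described by lists of genes, beside the members, with medians that are log2 fold changes over yw with the mutants averaged. Against yw itself the medians of the factors, tRNA synthetases and DNA and RNA genes turned to -0.08, -0.12 and -0.13 under TPM, and relative to the median of all rows they were 0.37, 0.33 and 0.32 there and 0.33, 0.29 and 0.32 on the deposited scale. A pair of mitochondrial ribosomal proteins carry other symbols and so lie outside the 73: tko, the counterpart of the decoding protein S12, and bonsai, that of S15. tko had 24.3 and 38.6 FPKM in HP1b16 and 39.2 and 27.1 FPKM in HP1b86, against 25.2 and 25.6 FPKM in yw. bonsai had 20.6 and 31.2 FPKM in HP1b16 and 34.4 and 29.4 FPKM in HP1b86, against 20.7 and 20.0 FPKM in yw. In both genes the first HP1b16 library did not lie above both yw libraries, while the other 3 mutant libraries did. Their fold changes of 0.31 and 0.46 with the mutants averaged fell within the range of the members.

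The 9 mitochondrial translation factors had a median log2 fold change of 0.26 with the mutants averaged, with 8 above 0 and none past the threshold in limma (2 under an unadjusted 0.05). Here and in the lists that follow, the shares of all rows were 42.7% above 0, 6.38% past the threshold in limma and 31.1% under an unadjusted 0.05. Their most abundant genes encode EF-Tu, which brings charged tRNA to the ribosome, and EF-Ts, which recycles it. EfTuM had 36.9 and 54.97 FPKM in HP1b16 and 50.2 and 40.1 FPKM in HP1b86, against 28.3 and 23.5 FPKM in yw, with all mutant libraries above yw. CG6412, the gene of EF-Ts, had 26.6 and 34.8 FPKM in HP1b16 and 31.1 and 50.7 FPKM in HP1b86, against 34.4 and 28.6 FPKM in yw, and its mutant and yw libraries overlapped.

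The 16 tRNA synthetase genes of mitochondria had a median of 0.21, with 12 above 0 and none past the threshold in limma (3 under an unadjusted 0.05). CG7441, the tryptophan enzyme, had 12.1 and 14.7 FPKM in HP1b16 and 9.87 and 35.7 FPKM in HP1b86, against 19.2 and 14.5 FPKM in yw. Aats-phe, the phenylalanine enzyme, had 15.9 and 20.2 FPKM in HP1b16 and 22.1 and 14.3 FPKM in HP1b86, against 12.2 and 11.3 FPKM in yw. The mutants of the first gene straddled yw, mainly through the second HP1b86 library, while those of the other lay above it.

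A list of 20 genes for mitochondrial DNA replication, RNA synthesis and RNA processing, with the matrix proteases Lon and ClpP, had a median of 0.24. All 20 were above 0 and none passed in limma (2 under an unadjusted 0.05). scu, a subunit of the enzyme that cuts mitochondrial tRNA precursors, had 208 and 249 FPKM in HP1b16 and 337 and 160 FPKM in HP1b86, against 130 and 127 FPKM in yw. CG5045, the gene of ClpP, had 50.5 and 57.1 FPKM in HP1b16 and 72.1 and 82.5 FPKM in HP1b86, against 52.9 and 50.9 FPKM in yw. Of the mitochondrial chaperones, Hsp60 had 77.0 and 108 FPKM in HP1b16 and 89.5 and 83.8 FPKM in HP1b86, against 59.9 and 50.8 FPKM in yw, and Hsc70-5 was likewise higher in all 4 mutant libraries.

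The products of the mitochondrial ribosome could be read only in part. The table gives the mitochondrial genome in 5 rows of several genes each, and in 4 of them at least 1 library is listed at 0, although genes such as those of cytochrome oxidase are used by every cell. The remaining row, mt:ND2 with a pair of tRNA genes, was named after its values were seen. It had 224 and 268 FPKM in HP1b16 and 300.1 and 218 FPKM in HP1b86, against 91.2 and 64.8 FPKM in yw, and its log2 fold change with the mutants averaged was 1.69 (SE 0.23, adjusted p = 0.0360 by limma). All mutant libraries of this row lay above both yw libraries.

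ATP synthase, the enzyme that makes ATP and takes some subunits from the mitochondrial ribosome, stood further above yw than the members did. Its 14 nuclear genes had a median log2 fold change of 1.39, and all 14 had every mutant library above both yw libraries. None of the 14 passed in limma, and 13 were under an unadjusted 0.05 (31.1% of all rows, 18.4% as higher). CG1746, the row of the c subunit of the rotor and a microRNA, had 1244 and 2007 FPKM in HP1b16 and 2095 and 894 FPKM in HP1b86, against 499.6 and 483 FPKM in yw. CG4692, the F subunit, had 643 and 925 FPKM in HP1b16 and 1161 and 630.4 FPKM in HP1b86, against 298 and 316 FPKM in yw. As in the members, the second HP1b16 and the first HP1b86 library were the higher ones of their genotypes.

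Genes of the cytosolic ribosome kept the order of the mutant libraries with another spacing. The 87 tested rows had a median log2 fold change of 0.23 with the mutants averaged, with 77 above 0 and none past the threshold in limma (1 under an unadjusted 0.05). That median was -0.19 under TPM and -0.23 under quantile scaling. Relative to the median of all rows it was 0.31 on the deposited scale, 0.26 under TPM and -0.08 under quantile scaling, where the members stood at 0.42. Against the yw mean their median was 0.04 and 0.16 in HP1b16, 0.57 and 0.12 in HP1b86, against 0.05 and -0.05 in yw. The first HP1b86 library stood apart, and the second HP1b16 library, as high as the first HP1b86 library for the members, was not. RpL41 had 2594 and 2880 FPKM in HP1b16 and 5090 and 3914 FPKM in HP1b86, against 3233 and 2559 FPKM in yw, and RpS29 had 2903 and 3235 FPKM in HP1b16 and 4051 and 3249 FPKM in HP1b86, against 3138 and 3016 FPKM in yw. No difference between this list and the members was tested.

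**Figure D5:**
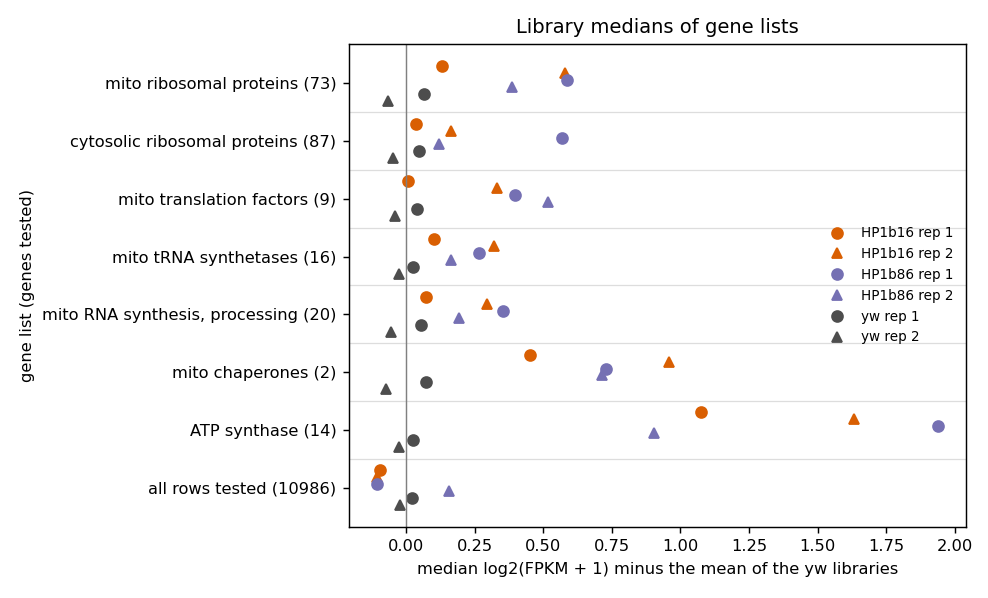
Median over each gene list of log2(FPKM + 1) minus the mean of the yw libraries (x axis), for each library (colours for genotypes, circles for the first and triangles for the second library), with the number of genes tested in parentheses. The mitochondrial ribosomal proteins lie at 0.13 and 0.58 in HP1b16 and 0.59 and 0.39 in HP1b86, and ATP synthase between 0.90 and 1.94 in the mutants. All rows tested lie between -0.11 and 0.16 in all 6 libraries.

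Markers of single tissues also differed between these whole larvae, in which more cells of a type and more RNA per cell cannot be told apart. Of 14 muscle markers, 13 were above 0 with the mutants averaged (42.7% of all rows) and 6 passed in limma (6.38% of all rows), with summed FPKM of 12579 and 15084 in HP1b16, 13755 and 8787 in HP1b86, against 2742 and 4506 in yw. Of 11 midgut markers, against the same shares of all rows, 11 were above 0 and 5 passed in limma, with summed FPKM of 26907 and 26454 in HP1b16, 66370 and 33320 in HP1b86, against 8343 and 9467 in yw. Of 19 tested markers of testis and spermatocytes, 1 was above 0 and none passed in limma, with sums of 316 and 335 in HP1b16, 199.99 and 1308 in HP1b86, against 758 and 432 in yw. Fat body markers could not be summed, since 5 of the 6 are listed at 0 in at least 1 library, Lsp2 among them in both HP1b16 libraries. The part of tissue make-up in the shift of the members was not tested.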

How the data were processed

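The 6 libraries were grouped by their labels. The FPKM were deposited by the authors, and the submitters' processing notes name bcl2fastq 2.18.0.12, Trim Galore 0.4.1, TopHat2 2.1.1, Cufflinks 2.2.1 and the dm3 build. The gene annotation, the use of strand and any scaling between libraries are not given in the sources used here.

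Values were taken to log2(FPKM + 1), so fold changes of low genes are understated. The 10986 rows that averaged 1 FPKM or more were fitted in 1 model over all libraries with limma 3.58.1 in R 4.3.3 (moderated variances with a trend, 1.59 prior degrees of freedom), and p-values were adjusted by the Benjamini-Hochberg method over these rows, at 0.05. The procedure was tested on simulated data.

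Depth was estimated from the smallest steps in the values of long genes with 1 transcript in the reference annotation (Ensembl release 115), and 81.2% to 93.3% of values under 5.5 fragments came out whole within 0.1. The annotation, of another build, gave only names, arms, lengths and overlaps, for 94% of tested rows in the case of lengths. No sequences were used here, so a planned search of promoters was not run.

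Members named are those that passed, the 5 highest and 5 lowest changes, the 3 most and 3 least abundant in yw and those in rows of several genes. Of each other list, up to 3 members that passed or, where fewer than 2 did, the 2 most abundant were named. mRpL20, mRpS5, mRpS33, mRpS18A, Hsp60, Hsc70-5, bonsai, tko, Lsp2 and mt:ND2 stand outside this rule. The members and lists were chosen with earlier results of these data known. Alternatives varied the pseudocount, filter, scaling, libraries fitted, replicate block and rows of several genes.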

Additional observations from a re-analysis of the deposited data

How the results depend on the processing

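Relative to the median of all rows, the member median stayed higher under all 14 alternatives in each comparison. It stood at 0.22 to 0.68 in HP1b16 (lowest without its second library, highest without its first). In HP1b86 it was 0.23 to 0.69 (lowest without its first, highest without its second), and with the mutants averaged 0.32 to 0.59. Not all of these alternatives could change it. TPM and median-ratio scaling multiply a whole library by the same factor, which alters this distance only through the pseudocount. A replicate block, both genotypes fitted alone, or libraries of the other mutant left out keep the value of a mutant by construction. The number of members above the median row, 73 with all libraries on the deposited scale, was 63 in HP1b16 without its second library, 67 in HP1b86 without its first, 70 in HP1b86 under quantile scaling, 71 in either mutant without the second yw library and 72 with the mutants averaged without the first HP1b86 library. With rows of several genes left out it was 70 of the 70 remaining, and under the other alternatives 73. Counts against yw itself were less stable, and they were followed after the data had been seen. TPM gave 25 of 73 members above yw in HP1b86, 39 with the mutants averaged, and 5 with every mutant library above yw. Leaving out single libraries gave 44 to 68 for the last count. Of the 18 named members, 8 were below 0 under TPM, 3 under quantile scaling and 2 without the second yw library with the mutants averaged.

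The 2 members that passed in HP1b86 became 0 without a filter (203 of all rows passed), under TPM (2071), under median-ratio scaling (1) and with both genotypes fitted alone (0). Under quantile scaling they became 1 (828 of all rows). In the mean of both mutants, where none passed, 2 did with a pseudocount of 0.1 (884 of all rows) or a minimum of 5 FPKM (922). There 1 did under median-ratio scaling (467 of all rows) or quantile scaling (1246). Without single libraries these counts ran from 0 to 19 in HP1b86 and from 0 to 21 with the mutants averaged, highest without the second HP1b86 library. A genotype left with 1 library is assumed there to vary like the others, and over all rows the same fit then called 4680 and 5052, against 443 and 701 with all libraries. The cause of these changes was not tested. The counts of 0 in HP1b16 and between the mutants held in each alternative. Over all rows the number that passed in HP1b16 was less stable. It was 2 in the main fit, 292 under TPM, 442 under quantile scaling and 2382 with HP1b16 and yw fitted alone.

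Whether replicate numbers pair the samples is not stated in the sources used here. Deviations of same-numbered libraries had correlations of 0.07 between HP1b16 and yw, -0.40 between HP1b86 and yw and -0.12 between the mutants. Each rests on the difference between the 2 libraries of a genotype, so a shared collection or preparation cannot be judged from them. With the number as a replicate block, 0 members passed in HP1b86 and 0 with the mutants averaged, and 0 of all rows. With the HP1b86 numbers crossed in the block, tried after seeing the data, 0 members passed in HP1b86 and 1 with the mutants averaged.

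At the estimated depths, counting alone gives an SD of 0.09 on the log2 scale for a difference between libraries. This is at the median fragments of the library with the lowest estimate, and how well such counts hold for short transcripts was not tested. The median SDs of the members between libraries were 0.31 in HP1b16, 0.15 in HP1b86 and 0.10 in yw. Those are SDs of single values and not of a difference, and on that footing counting alone gives less than 0.09.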
